A study of Homo sapiens with 6 samples.

Results

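The genes described here are 10 regulators of the G1 phase and of entry into S phase in REH cells, an established cell line from a human acute lymphoblastic leukaemia of B-cell precursors. They were taken by symbol from the deposited gene table and are the D cyclins CCND2 and CCND3, the E cyclins CCNE1 and CCNE2, the kinases CDK2, CDK4 and CDK6, the inhibitors CDKN1B and CDKN2C, and the phosphatase CDC25A. All 10 were found among the table's 26364 genes. The cells had been exposed for 6 h to 50 µM of S3I-201, a STAT3-directed small molecule, or to its solvent DMSO. Each group comprised 3 RNA-seq libraries from independent experiments on 1 cell line.

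A cell commits to division in G1. D cyclins activate CDK4 and CDK6, and E cyclins activate CDK2; these kinases phosphorylate the retinoblastoma protein and so free E2F factors, which switch on genes of S phase. CDC25A removes inhibitory phosphates from CDK2. INK4 proteins such as CDKN2C (p18) bind CDK4 and CDK6 and keep them from D cyclins, while CIP/KIP proteins such as CDKN1B (p27) and CDKN1A (p21) inhibit CDK2 complexes. In B-cell precursors, signals from cytokine receptors and from the pre-B-cell receptor act on this step.

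The table used here pools the 6 libraries into 4 values for each gene (mean normalized count, log2 fold change, p-value and adjusted p), so values of single libraries and their spread were not analysed here. Which group is on top of the fold change is not stated. A positive value was taken to mean more transcript with S3I-201; if the table runs the other way, each direction below is turned round. The fold changes look shrunken towards 0, as genes with a single read in 1 library carried log2 values of only 0.033 to 0.042 in size per the authors' deposited table. The implied standard error (SE) and the 95% intervals given below were computed from each fold change and its p-value, and they describe the shrunken estimate. Depth, reconstructed from the steps that single reads make in low means, was about 6557500 to 14519600 counts per library. The lowest was on the side of positive fold changes, read here as S3I-201, beside 13645800 and 14519600 counts on that side. The other side ran from 10854700 to 14134800. In these bulk libraries, a change in transcript per cell and a change in the share of cells in a cycle phase cannot be told apart. Of 12 B-precursor markers 11 were detected, VPREB1 being listed at 0, while the T-cell markers in the table (4 of 4) and the erythroid ones (3 of 3) were listed at 0. Of 10 B-precursor markers tested, 1 was lower, 0 were higher and 9 did not pass, with 3 at an unadjusted p under 0.05, negative values in all 10 and a median log2 fold change of -0.20. Among all genes tested, 1.45% were lower, 16.0% had an unadjusted p under 0.05 and 46.4% had a positive fold change. The lower one was the surface protein gene CD24, at -0.61 per the authors' deposited table (SE 0.16, adjusted p = 0.00505). The part of these marker values in the results below was not tested. The myeloid gene MPO and the stromal gene PDGFRB were present, with means of 978 and 654 normalized counts per the authors' deposited table. By the authors' DESeq2 adjusted p, 0 of the 4 tested myeloid and stromal markers passed, and 0 had an unadjusted p under 0.05.

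None of the 10 G1 regulators changed past the threshold after 6 h of S3I-201. By the authors' DESeq2 adjusted p at 0.05, 0 of 10 were higher and 0 were lower, against 5.90% of the 11912 genes tested, of which 4.45% were higher and 1.45% lower. A share of 5.90% corresponds to fewer than 1 gene in 10, so the count of 0 lies near the background. At an unadjusted p under 0.05 there were 2 of 10, CDKN1B and CCNE2, both on the positive side, where all genes tested gave 16.0% in either direction and 9.11% on the positive side. Positive fold changes were found for 6 of the 10 members and for 46.4% of all genes tested. The median log2 fold change of the members was 0.17, and that of all genes tested -0.022 per the authors' deposited table.

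**Figure D1:**
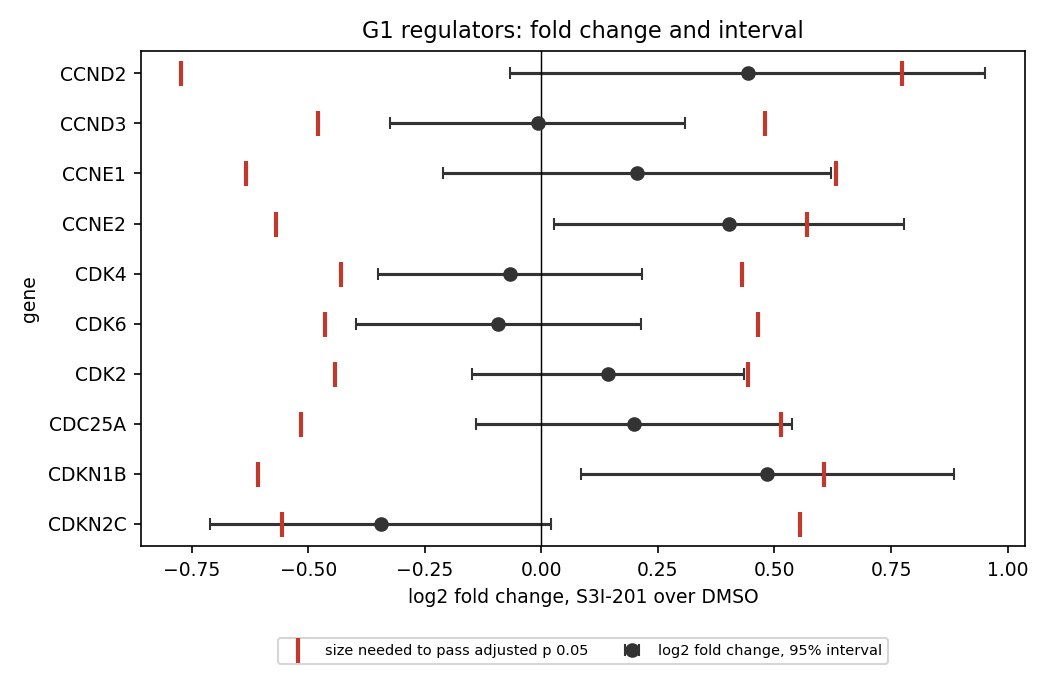
Log2 fold change of the 10 G1 regulators, S3I-201 over DMSO (horizontal axis), by gene (vertical axis). Points are the authors' values, bars the 95% interval from the implied SE, and red ticks the size that each gene would have needed to pass an adjusted p of 0.05. No point reaches its tick, and only the bars of CCNE2 and CDKN1B stay clear of 0.

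CCND3 was the most abundant of the D cyclin transcripts. CCND3 had a mean of 4528 normalized counts over the 6 libraries per the authors' deposited table, above 96.8% of the genes tested. CCND2 stood at 48.1 and CCND1, which is not one of the 10, at 4.50 normalized counts per the authors' deposited table. Divided by exon length, CCND3 reached 780 normalized counts per kilobase and made up 99.0% of the summed level of the 3 D cyclins. Per length its level was 116 times that of CCND2, or 255 times when the longest coding transcript was used in place of all annotated exons.

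CCND3, the D cyclin that drives expansion of pre-B cells in mice, had a log2 fold change of -0.0081 per the authors' deposited table (SE 0.16, adjusted p = 0.990). The 95% interval ran from a fold of 0.799 to 1.24. The sign of this value depends on the centring, since it became 0.014 after removal of the median of all genes and 0.062 after removal of the abundance trend. CCND2 had 0.44 on the log2 scale per the authors' deposited table (SE 0.26, adjusted p = 0.428), with an interval from 0.955-fold to 1.93-fold. Its size exceeded that of 90.0% of the genes tested, yet at this low count a log2 fold change of 0.77 would have been needed to pass.

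The E cyclins were present at levels close to each other, with 152 normalized counts per kilobase for CCNE1 and 139 for CCNE2, or 190 and 184 by the longest coding transcript. CCNE2 had a log2 fold change of 0.40 per the authors' deposited table (SE 0.19, unadjusted p = 0.0358, adjusted p = 0.259). CCNE1 had 0.21 per the authors' deposited table (SE 0.21, adjusted p = 0.736). The intervals were 1.02-fold to 1.71-fold for CCNE2 and 0.863-fold to 1.54-fold for CCNE1, and neither value passed. The exons of CCNE2 overlap those of INTS8, a gene of the opposite strand, over 37.0% of their length. The library method does not mark the strand, so reads in the overlap cannot be assigned to 1 of the 2 genes. INTS8 had a mean of 975 normalized counts and a log2 fold change of -0.14 per the authors' deposited table. The level of CCNE2 per kilobase was taken over a length that includes the overlap. Its closeness to the level of CCNE1 is therefore not settled.

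The kinase transcripts were abundant and their intervals were the narrowest of the members. CDK6 had a mean of 11062 normalized counts per the authors' deposited table, more than 99.4% of the genes tested, and CDK4 had 2230. Per kilobase of exon the order from the top was CDK6 at 902, CCND3 at 780, CDK4 at 704 and CDK2 at 397 normalized counts. With the longest coding transcript as the length, CCND3 came first at 1891, CDK4 second at 1074 and CDK6 next at 953, so the order of these 3 depends on the length used and is not settled here. In both versions CDK2, CDKN2C, CCNE1, CCNE2, CDC25A, CDKN1B and CCND2 followed in that order, with a spread over libraries that the pooled means do not give. Exon overlaps with other genes, among them those of CCNE2 and CDK4, were not taken out of either length. The places of CCNE2 and CDK4 in this order are therefore uncertain.

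**Figure D2:**
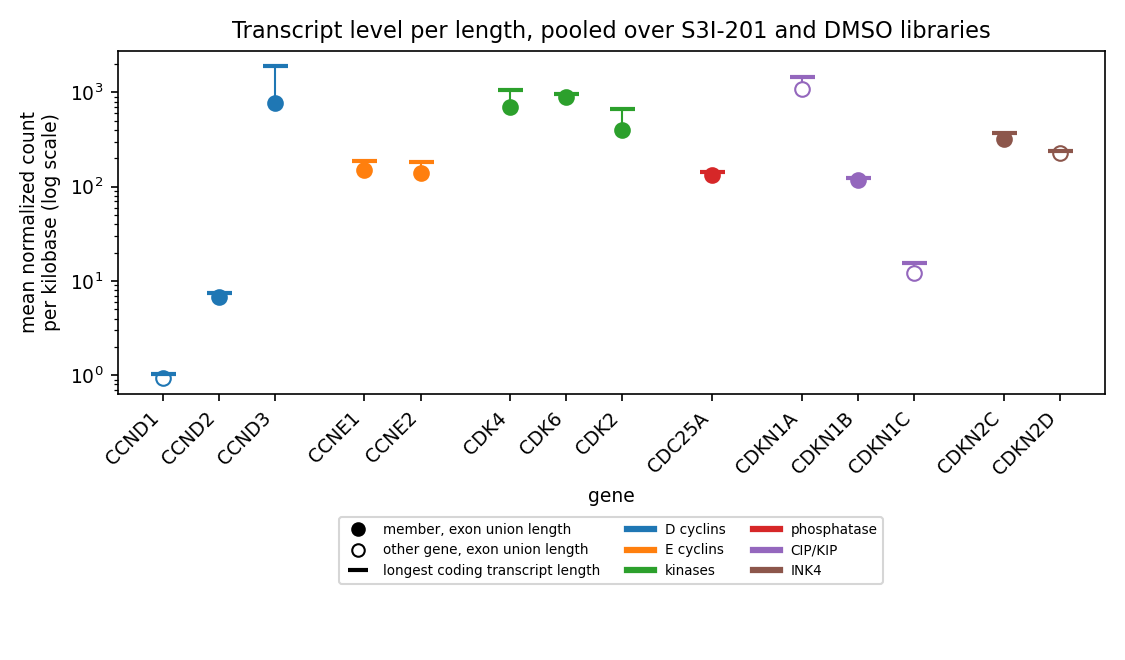
Mean normalized count per kilobase (vertical axis, log scale), pooled over the S3I-201 and DMSO libraries, for the G1 regulators and the related genes CCND1, CDKN1A, CDKN1C and CDKN2D. Circles use the union of annotated exons and dashes the longest coding transcript; CCND3 stands at 780 against 6.72 for CCND2, and CDKN2A and CDKN2B, listed at 0, are not drawn.

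CDK4 had a log2 fold change of -0.068 per the authors' deposited table (SE 0.14, adjusted p = 0.901), with an interval from 0.784-fold to 1.16-fold. CDK6 had -0.092 per the authors' deposited table (SE 0.16, adjusted p = 0.866), with an interval from 0.759-fold to 1.16-fold. CDK2, the partner of E cyclins, had 0.14 per the authors' deposited table (SE 0.15, adjusted p = 0.738), with an interval from 0.902-fold to 1.35-fold. For all 3 kinases a change of 1.35-fold to 1.38-fold would have passed at the same SE, and none was that large. The CDK4 value also carries an overlap: 43.2% of its exon length is shared with TSPAN31 on the opposite strand, which had a mean of 122 normalized counts and a log2 fold change of 0.16 per the authors' deposited table.

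CDC25A, which removes the inhibitory phosphates from CDK2, had a mean of 545 normalized counts and a log2 fold change of 0.20 per the authors' deposited table (SE 0.17, adjusted p = 0.665). Its interval ran from 0.907-fold to 1.45-fold. CDC25A lies on chromosome 3 from 48157146 to 48188417 (whole gene, hg38).

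The inhibitors among the members had values of opposite sign, and neither passed. CDKN1B, which encodes p27, had the largest value of the 10, a log2 fold change of 0.48 per the authors' deposited table (SE 0.20, unadjusted p = 0.0176, adjusted p = 0.171). Its interval was 1.06-fold to 1.85-fold around 1.40-fold, and 0.61 on the log2 scale would have been needed. CDKN2C, which encodes p18, had the lowest, with -0.34 per the authors' deposited table (SE 0.19, unadjusted p = 0.0651, adjusted p = 0.364) and an interval from 0.611-fold to 1.02-fold. The difference between the 2 genes was not tested. CDKN1B lies on chromosome 12 from 12717368 to 12722369 and CDKN2C on chromosome 1 from 50960745 to 50974634 (hg38, whole genes).

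**Figure D3:**
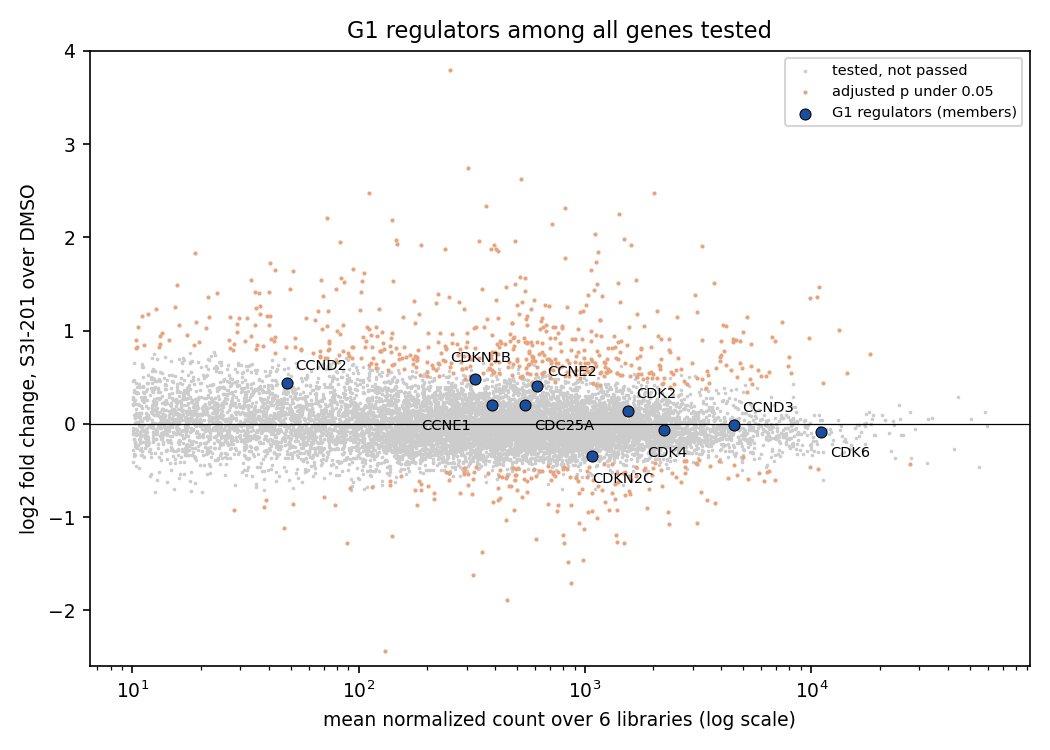
Log2 fold change, S3I-201 over DMSO (vertical axis), against the mean normalized count over the 6 libraries (horizontal axis, log scale) for the 11912 genes tested. The 10 G1 regulators, in blue, lie among the genes that did not pass (grey), from CCND2 at 48.1 to CDK6 at 11062 normalized counts.

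Among inhibitors outside the 10, CDKN1A rose. CDKN1A, which encodes the p53-inducible p21, had a log2 fold change of 1.90 per the authors' deposited table (SE 0.23, adjusted p = 4.76e-14), or 3.74-fold with an interval from 2.74-fold to 5.12-fold. Its mean was 3286 normalized counts per the authors' deposited table. Pooled over both groups CDKN1A held 89.3% of the summed level per kilobase of the 3 CIP/KIP genes, with 9.66% for CDKN1B and the rest for CDKN1C. CDKN3, a phosphatase that acts on CDK1 and CDK2, fell by 0.75 on the log2 scale per the authors' deposited table (SE 0.21, adjusted p = 0.0105). CDKN2D (p19) had 0.46 (adjusted p = 0.273) and CDKN1C (p57) 0.10 (adjusted p = 0.924) per the authors' deposited table, and neither passed.

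Of the INK4 genes, CDKN2C held 58.9% and CDKN2D 41.1% of the summed level per kilobase. CDKN2A and CDKN2B were listed at 0 per the authors' deposited table, so no read was counted for them in any of the 6 libraries. A true level of 0.481 normalized counts corresponds to 3 expected counts over the 6 libraries, so levels below it could have gone unseen. CDKN2C and CDKN2D were thus the INK4 transcripts detected, with log2 fold changes of -0.34 and 0.46 that did not pass per the authors' deposited table.

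Genes that act on the 10 or are read out by them were counted as lists. Each count below stands beside 4.45% higher and 1.45% lower among all 11912 genes tested. For the turnover of G1 regulators, 2 of 17 tested genes fell and 15 did not pass, with a median log2 fold change of -0.076. These were SKP2, the F-box protein that marks p27 for degradation, at -0.52 (SE 0.16, adjusted p = 0.0290), and CKS2, a small CDK-binding protein, at -0.57 (SE 0.15, adjusted p = 0.00449) per the authors' deposited table. SKP2 did not pass once the abundance trend was removed (adjusted p = 0.0531). CKS1B, the partner of SKP2 in p27 recognition, had -0.0064 (adjusted p = 0.994) per the authors' deposited table, a value whose sign turned to 0.015 after removal of the median of all genes.

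A list of further cyclins, not all of them cyclins of G1 phase, and of factors of CDK activation had 1 of 8 tested higher. The other 7 did not pass, and the median was -0.020. The 1 was CCNG1, a p53-inducible cyclin, at 0.65 (SE 0.18, adjusted p = 0.0113) per the authors' deposited table. The smallest adjusted p among the rest belonged to MNAT1, an assembly factor of the CDK-activating kinase, at 0.20 (adjusted p = 0.535) per the authors' deposited table. Of upstream inducers and repressors, 1 of 9 tested fell and 8 did not pass, with a median of 0.082. MYB, a factor of haematopoietic progenitors, fell by 0.51 on the log2 scale per the authors' deposited table (SE 0.15, adjusted p = 0.0141), a call that was lost after the abundance trend was taken out (adjusted p = 0.0508). FOXO3, an activator of the CDKN1B gene, had 0.44 (adjusted p = 0.161) per the authors' deposited table. MYC had -0.57 with no p-value and is not among the 9 tested.

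Pocket proteins and E2F factors had 1 of 17 tested higher, E2F2 at 0.72 (SE 0.21, adjusted p = 0.0113) per the authors' deposited table, while 16 did not pass and the list median was 0.30. A count of 1 in 17 lies near the 4.45% of all genes tested that were higher. LIN37, a subunit of the DREAM repressor complex, had 0.52 (adjusted p = 0.0982) per the authors' deposited table. Among 20 tested genes that are transcribed at the G1/S border, 3 of them also members here, 2 were higher and 18 did not pass, with a median of 0.17. The 2 were the licensing factors CDT1 at 0.53 (adjusted p = 0.0362) and MCM5 at 0.51 (adjusted p = 0.0206) per the authors' deposited table, and CDT1 did not pass when every gene with a p-value entered the adjustment (adjusted p = 0.0511). PCNA, the sliding clamp, had 0.41 (adjusted p = 0.109) per the authors' deposited table and passed after the abundance trend was taken out (adjusted p = 0.0391). MCM7 had the other sign and a smaller value of the authors' DESeq2 adjusted p, at -0.44 (adjusted p = 0.0940). Of the 20 tested genes, 16 had positive and 4 negative fold changes. CDC6 had 0.76 and SLBP 0.037 with no p-value per the authors' deposited table, so they are not among the 20 tested. With MYC and CCNB2 they belong to 83 genes that have a mean above 0 but no p-value. The reason is not stated, and the pooled values do not show whether 1 library drives such a fold change. These values are therefore no evidence of a change.

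The cyclins, kinases and phosphatases of S, G2 and M phase had other values. Of 8 tested, 4 fell and 4 did not pass, with a median log2 fold change of -0.72 beside 0.17 for the 10 G1 regulators and -0.022 for all genes tested. Lower calls made up 1.45% of all genes tested. Cyclin B1 (CCNB1) stood at -1.48 (SE 0.22, adjusted p = 2.31e-09) and cyclin F (CCNF) at -1.20 (SE 0.22, adjusted p = 3.19e-06) per the authors' deposited table. CDC25B, the relative of CDC25A that acts at mitotic entry, had -0.87 (SE 0.18, adjusted p = 5.44e-05), and cyclin A2 (CCNA2) -0.77 (SE 0.23, adjusted p = 0.0175) per the authors' deposited table. CCNB2 had -0.62 with no p-value per the authors' deposited table and is not among the 8 tested. The difference between the lists was not tested, since both come from the same libraries and the lists were chosen with earlier results known. Of 22 cyclins and CDKs with other roles, 1 fell and 21 did not pass, with a median of -0.014. The 1 was CCNJ at -0.55 (SE 0.16, adjusted p = 0.0179) per the authors' deposited table, and the smallest adjusted p after it was that of the cyclin of splicing and transcription CCNL1, at 0.37 (adjusted p = 0.171).

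**Figure D4:**
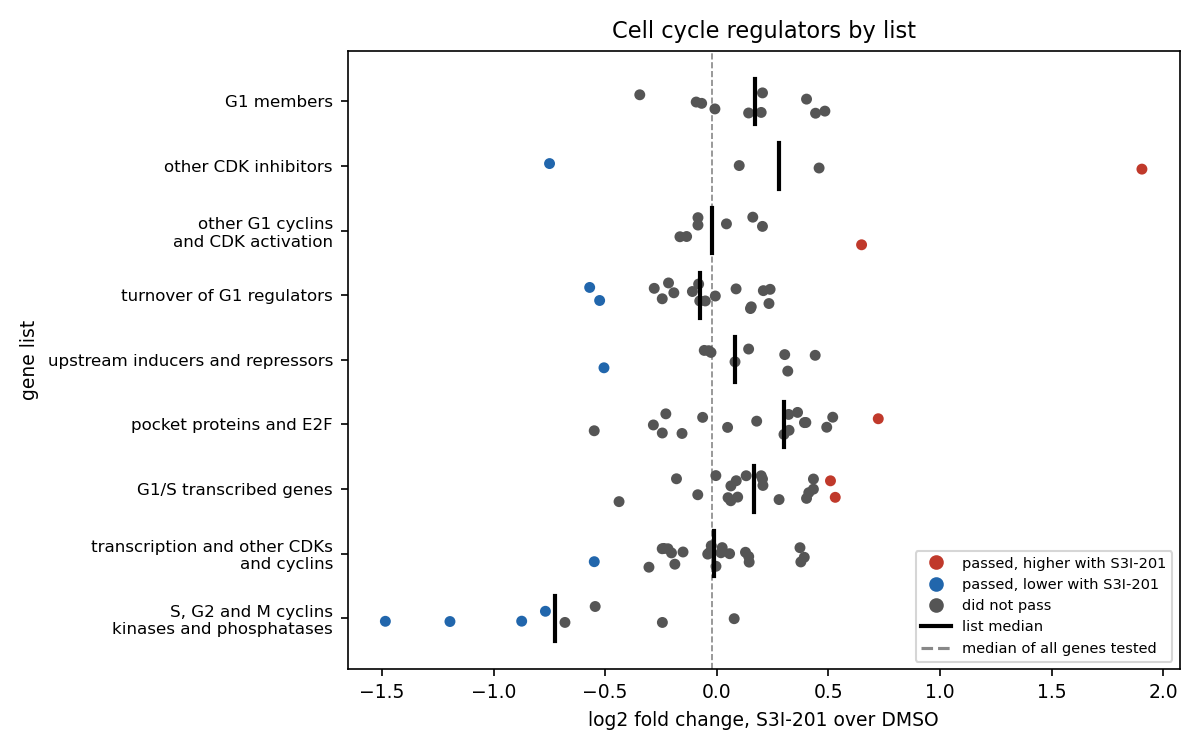
Log2 fold change, S3I-201 over DMSO (horizontal axis), of each tested gene in 9 lists (vertical axis), coloured by whether it passed an adjusted p of 0.05 in the higher or the lower direction. Black bars are list medians, among them 0.17 for the G1 regulators, 0.30 for pocket proteins and E2F factors and -0.72 for the cyclins, kinases and phosphatases of S, G2 and M phase, and the dashed line is the median of all genes tested, -0.022.

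E2F-like sequence upstream of a gene is a textbook feature of G1/S transcription, so the promoters of the members were searched. RefSeq windows from 250 bases before to 50 bases after the gene start (GRCh38.p14) were matched for 7 of the 10, in 12 windows, since CCND3, CDK6 and CDKN2C have several starts. The E2F motif was spelled as TTGGCGC, or with the letters TTCCCGC, or with the letters TTCGCGC, each on both strands. CCND2, CCNE2 and CDK2 had no matched window and were not searched. The motifs were found in 2 of the 7 genes, CDC25A and CDKN2C, or in 2 of 12 windows (16.7%). Of 35116 windows of all genes 11.0% had a match, so the count of 2 lies near that share. The 250 bases before the start of CDC25A are shown because 2 overlapping matches, in capitals, lie 34 to 43 bases before the start, on the minus strand at chr3:48188418-48188667. Those of CDKN2C, on the plus strand at chr1:50968456-50968705, hold matches 125 to 131 and 28 to 34 bases before the second of its starts. The window of CDKN1B, at chr12:12717118-12717367 on the plus strand, is shown as that of the member with the smallest p and holds 0 matches.
CDC25A: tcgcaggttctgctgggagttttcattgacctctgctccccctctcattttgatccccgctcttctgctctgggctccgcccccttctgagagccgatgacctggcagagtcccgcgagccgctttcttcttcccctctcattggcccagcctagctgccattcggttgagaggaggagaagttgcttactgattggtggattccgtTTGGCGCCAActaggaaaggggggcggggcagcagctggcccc
CDKN2C: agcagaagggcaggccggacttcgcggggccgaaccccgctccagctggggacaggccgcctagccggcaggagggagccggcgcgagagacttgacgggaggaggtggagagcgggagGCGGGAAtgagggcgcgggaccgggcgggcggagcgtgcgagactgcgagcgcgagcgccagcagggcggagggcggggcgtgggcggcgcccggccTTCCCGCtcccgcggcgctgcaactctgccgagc
CDKN1B: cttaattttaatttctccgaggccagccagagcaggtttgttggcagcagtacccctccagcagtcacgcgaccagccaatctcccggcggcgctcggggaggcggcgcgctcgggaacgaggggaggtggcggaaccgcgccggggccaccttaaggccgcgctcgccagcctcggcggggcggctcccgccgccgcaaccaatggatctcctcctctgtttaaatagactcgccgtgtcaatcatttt

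The letters TTTGAA, the cell cycle homology region known from genes of G2 and mitosis, were in 0 of the 12 windows of the members on either strand, against 15.2% of windows of all genes. Among the cyclins, kinases and phosphatases of S, G2 and M phase, TTTGAA was in 6 of 14 windows (42.9%) and an E2F motif also in 6 of 14. By gene, where several starts give several chances of a match, 4 of 7 held TTTGAA and 4 of 7 an E2F motif. These 7 are the genes with a matched window among the 9 of the list, and no share by gene was computed for all genes. TTTGAA is known from genes of this kind, so its share here is description only. A match is a match of letters in these windows only. CDC25A and CDKN2C, the members with E2F letters, had log2 fold changes of 0.20 and -0.34 per the authors' deposited table, neither of which passed.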

How the data were processed

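Total RNA of REH cells was sequenced after TruSeq RNA v2 library preparation, which does not mark the strand, per the labels' protocols. hg38, bcl2fastq 2.19, Trimmomatic, Bowtie2, Picard, featureCounts and DESeq2 are named in the submitters' processing notes, without roles; annotation and model formula are not given in the sources used here. For each gene the mean normalized count, a signal, is the authors' mean of counts over size factors, per the file headers. Log2 fold changes, p-values and adjusted p-values are likewise the authors', per the file headers. The planned count test could not be run on pooled values, so the authors' adjusted p was used at 0.05, over the 11912 genes that have one.

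An implied SE was taken as the absolute log2 fold change over the normal quantile of the p-value (scipy 1.17.1). Lengths came from GENCODE exons on hg38's primary assembly, and starts, positions and windows from RefSeq (GRCh38.p14). Depth came from 6 single-read steps, which explained 100% of 2067 means under 0.6 within 1e-07, scaled by the summed means. Code for the adjustment of p-values and for the removal of abundance bins was tested on simulated data. Members, lists and tests were chosen with earlier results of these data known. Named were all members, every listed gene that passed, and up to 2 per list with the smallest adjusted p. Others (MYC, PCNA, MCM7, CDC6, SLBP, CDKN2D, 2 lineage markers, CCNB2, CKS1B, CCND1, CDKN1C, CDKN2A, CDKN2B and the overlapping genes) were named after their values were seen. p-values measure the spread between these libraries.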

Additional observations from a re-analysis of the deposited data

How the results depend on the processing

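The members' counts of 0 higher and 0 lower held under all 7 alternatives run: adjusted p at 0.01 or 0.1, a minimum log2 fold change of 0.5, no filter on low means, a minimum mean of 100 (9 members), and removal of the median of all genes or of 20 abundance bins. Their median ran from 0.14 to 0.20. Over all genes, 173 lower calls became 79 at 0.01 and 270 at 0.1. Signs turned without any call, with the cause not tested, for CCND3 (0.014 with the overall median removed, 0.062 with the bins), CKS1B (0.015 and 0.0093), CCNL2 (0.018 and 0.042) and MCM4 (0.018 and 0.066), and with the bins alone for GSK3B (0.016), SMAD3 (0.0056), CDK14 (0.020) and CDK16 (0.015). Of 102 other listed genes, 9 calls were lost at 0.01, 4 were gained at 0.1, 1 was lost without the filter, and with the bins removed 2 were lost and 1 gained. Length by the longest coding transcript, chosen after seeing the data, raised every member's level and changed the order of CDK6, CCND3 and CDK4. No paired analysis was possible because the deposited values pool the libraries; for the same reason leaving out a replicate and refitting counts were not run. Among the 10 members, CCND2 had the lowest mean and the largest implied SE, 0.26.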

Other observations

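All symbols of the form of a cyclin, a CDK or a CDK inhibitor were also counted as 1 family, a choice made after the values were seen. Of 54 such genes in the table, 45 were tested. By the authors' DESeq2 adjusted p, 2 were higher (CDKN1A and CCNG1), 5 were lower (CCNA2, CCNB1, CCNF, CCNJ and CDKN3) and 38 did not pass. Over all genes tested, 4.45% were higher and 1.45% lower, so the 2 higher among 45 lie near the share of all genes. The median log2 fold change of the 45 was -0.0081, beside -0.022 for all genes tested.

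The zero means of CDKN2A and CDKN2B had neighbours like them, which was also seen only after their values were known. On chromosome 9, the protein-coding genes MTAP, CDKN2A, CDKN2B, DMRTA1 and ELAVL2, from 21802636 to 23850601 (hg38), were all listed at 0 in the authors' deposited table. The chain began after SLC24A2, with 2.98 normalized counts, and ended before CAAP1, with 347 normalized counts in the authors' deposited table. Between them KLHL9 at 0.140 and TUSC1 at 0.431 normalized counts were the genes above 0 in the authors' deposited table. Genes at 0 are common, with 9307 in the whole table, and the cause was not tested.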
